A study of Mus musculus with 20 samples.

Results

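The regions described here are the autosomal pRb peaks of proliferating mouse embryonic fibroblasts, compared between wild type (WT) and a second genotype, labelled SS with no further description. The members are every peak on chromosomes 1 to 19 of the proliferating WT and proliferating SS pRb lists, 76548 in WT and 104728 in SS cells. Together these are 181276 of the 4480164 peaks in the 10 lists of the series. The 1261 WT and 1744 SS peaks on X and Y were left out. Chromatin immunoprecipitation followed by sequencing was used, a method that pulls down the DNA bound by a protein and reads it, so that a peak is a place where reads pile up above background. Both libraries came from C57BL/6 fibroblasts of stage E13.5 at passage 4, grown in 10% serum, with asynchronous proliferation given as the growth condition. The treatment field of both nevertheless describes serum deprivation, as it does for every library of the series. The labels list 5 pRb antibodies for each library and do not say how they were combined. Each genotype had 1 library, so the differences below were not tested against replicates and carry no p-values. Intervals are 95% Wilson intervals over peaks, which cover counting error only, and neighbouring peaks are not independent. An input library accompanies each of them, but only peak lists were used. Sequencing depth is unknown from the lists, and neither the cell type nor the genotype can be checked from peak positions.

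pRb is the product of the retinoblastoma gene Rb1, a tumour suppressor that does not read DNA sequence on its own and reaches chromatin through partners such as the E2F transcription factors. In quiescent cells hypophosphorylated pRb holds cell cycle genes silent. In proliferating cells cyclin-dependent kinases phosphorylate pRb and release it from E2F factors at those genes for part of the cycle. The series title adds silencing of endogenous retroelements, repeated sequences derived from retroviruses, and the design takes wild type as the reference for each mutant genotype. Positions are given in the mm9 build, counted from 1. No gene or repeat annotation of that build was used, so peaks are named by position and no sequence is shown.

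Both lists consisted of short peaks of nearly the same size. The median length was 148 bp in WT, with quartiles of 132 and 160 bp. In SS cells the median was 145 bp, with quartiles of 127 and 157 bp. The shortest peak was 54 bp long in either list, and the longest 4654 bp in WT and 3539 bp in SS cells. Peaks of 300 bp or more were rare, 146 in WT (0.191%) and 344 in SS cells (0.328%). The number of SS peaks was 1.37 times that of WT peaks (1.36 to 1.38), and they covered 15.3 Mb against 11.3 Mb, which is 0.619% and 0.456% of the 2472 Mb of autosomes spanned by the lists. The larger SS coverage thus came with more peaks and not with longer ones.

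The authors' score per peak, whose unit is not stated, started at 20 in both lists. Its median was 24.1 in WT and 24.3 in SS cells, but the upper tails were unlike. Scores of at least 30 were held by 11.5% of WT and 22.4% of SS peaks, and scores of at least 100 by 5 WT and 104 SS peaks. The highest score was 339 in WT and 3223 in SS cells. With the unit and the depth unknown, the tails describe each list and are no measure of binding strength. Within each list the score mostly went with shortness. Spearman's rho between length and score was -0.372 over WT and -0.199 over SS peaks, a description across peaks of 1 library. Peaks of at least 300 bp were an exception, with median scores of 29.5 in WT and 35.3 in SS cells, above the list medians. Of the peaks scoring at least 60, 64 of 83 in WT and 718 of 916 in SS cells were shorter than 100 bp, against 4.80% and 7.17% of all peaks. Peaks of the shortest length, 54 bp, numbered 6 in WT and 160 in SS cells, with median scores of 66.9 and 74.3.

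**Figure D1:**
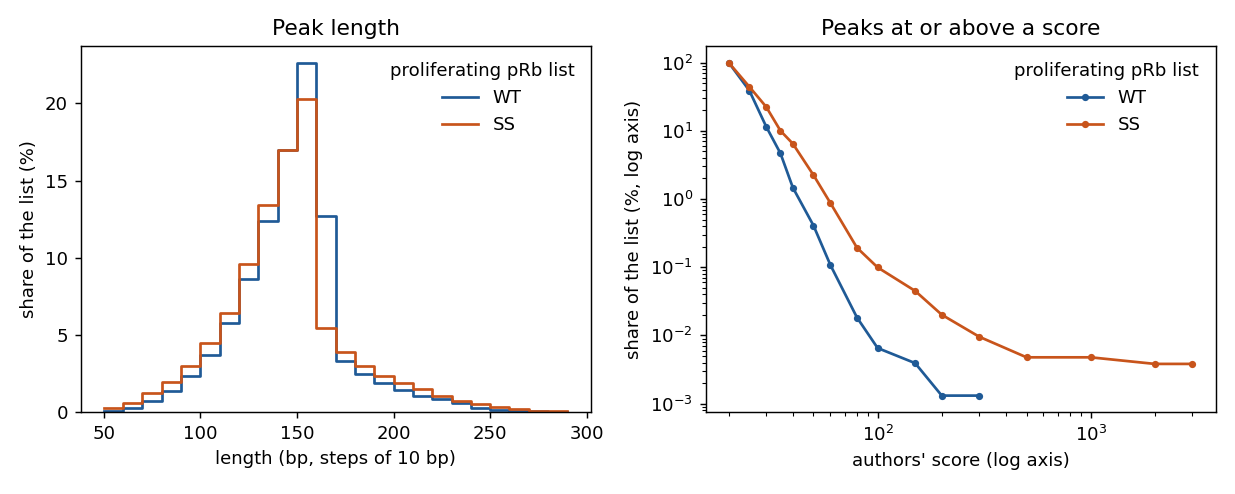
Left, share of each autosomal list (%) by peak length in steps of 10 bp; right, share of each list at or above a given authors' score, both axes logarithmic; blue WT, orange SS, 1 library each. The lengths nearly coincide (medians 148 and 145 bp), while at a score of 30 the SS curve stands at 22.4% and the WT curve at 11.5%.

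The highest-scoring peaks, listed here, overlapped no peak of the other genotype. Such overlap was rare throughout, at 1.70% of all WT and 1.25% of all SS peaks. In SS cells 5 peaks scored above 1000, and no peak of the 9 remaining lists overlapped them. The 5 peaks lay on chromosome 2 at 98502361-98503182 (score 3223) and 98506336-98507498 (score 3100), on chromosome 12 at 3109860-3110198 (score 3222), on chromosome 9 at 35112785-35113185 (score 3100) and on chromosome 13 at 77578100-77578370 (score 1255). The nearest WT peak was between 5502 and 70377 bp away. Over all SS peaks the median gap to a WT peak was 10267 bp, and over all WT peaks that to an SS peak was 7428 bp. In WT cells the top score, 339, fell on a peak of 58 bp on chromosome 14 at 58626825-58626882, with no SS peak within 8561 bp. The second, with a score of 180, was the longest WT peak, on chromosome 1 at 24618371-24623024. Both arrested pRb lists also had a peak there, whereas the nearest proliferating SS peak was 5106 bp away. The remaining WT-only peaks scoring above 100 lay on chromosome 15 at 72231259-72231414 (152.57), on chromosome 5 at 78908112-78908189 (120.74) and on chromosome 4 at 72809977-72810046 (108.2). Each of them overlapped a peak of at least 1 other library, as did 50.1% of all WT peaks.

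The next question was whether pRb lay at the same places in both genotypes. Few peaks coincided. At least 1 bp of an SS peak was found in 1302 WT peaks, 1.70% of the list (1.61 to 1.79). In the other direction 1305 SS peaks, 1.25% (1.18 to 1.32), held at least 1 bp of a WT peak. These peaks are called shared below, and the 75246 other WT and 103423 other SS peaks WT-only and SS-only. The shared peaks formed 1307 pairs with a median of 79 bp in common. In 444 pairs at least 100 bp were shared, and in 73 pairs fewer than 10 bp. When the midpoint of a peak had to lie inside a peak of the other list, which takes its own length out of the comparison, the share was 0.943% for WT and 0.709% for SS peaks. SS peaks covered 0.619% of the autosomes and WT peaks 0.456%, so the midpoint shares were 1.52 and 1.55 times the covered shares. For the arrested pRb lists of the same genotypes, the midpoint shares were 6.15% of WT and 3.47% of SS peaks, each 1.13 times the covered share of the other list. The extent includes sequence to which reads cannot be mapped, and its part in these ratios was not tested.

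Shared peaks resembled the others in length and score. Shared WT peaks had a median length of 150 bp and a median score of 24.0, against 148 bp and 24.1 in WT-only peaks. Shared SS peaks had medians of 147 bp and 24.4, against 145 bp and 24.3 in SS-only peaks. Over the deciles of the WT list by score the shared percentage lay between 1.42% and 1.93%, with the lowest decile at 1.93% (1.65 to 2.27) and the highest at 1.91% (1.62 to 2.24). In SS cells the highest decile by score had 1.66% (1.43 to 1.92), above the autosomal 1.25%, and the other deciles lay between 1.00% and 1.38%. The deciles do not resolve the few highest scores. Of the 312 WT peaks scoring at least 50, 17 were shared (5.45%), and of the 83 scoring at least 60, 6 were (7.23%), both above the 1.70% of all WT peaks. In SS cells the corresponding shares were 1.50% (35 of 2341) and 1.42% (13 of 916), beside 1.25% of all SS peaks. By length, the longest decile had the highest share in both lists, 2.14% of WT and 1.60% of SS peaks. By midpoint the longest decile was at 1.03% in WT and 0.764% in SS cells, close to the 0.943% and 0.709% of all peaks. Within the 1307 pairs the WT and SS scores barely followed each other, with a Spearman's rho of 0.0780, and the lengths gave 0.0393. These are descriptions across peaks of the same library pair.

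**Figure D2:**
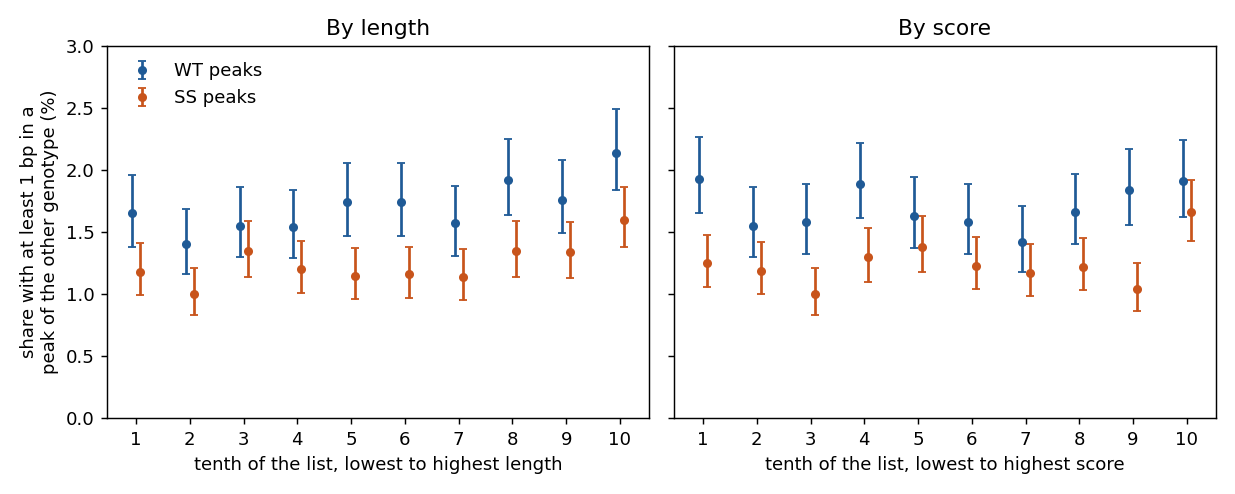
Percentage of WT (blue) and SS (orange) peaks that overlap the other genotype by 1 bp or more, by decile of the list from lowest to highest length (left) and authors' score (right); bars are 95% Wilson intervals over peaks. Apart from the longest decile, at 2.14% and 1.60%, and the highest-scoring SS decile, at 1.66%, the points stay near 1.70% in WT and 1.25% in SS cells.

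Of the 1307 pairs, 17 had a WT score of at least 50, 35 had such an SS score, and 4 had both. Whether 4 is more than unrelated scores would give was not tested. The highest of them lay on chromosome 6, where a WT peak at 18631849-18631914 with a score of 77.8 met an SS peak at 18631856-18631915 with a score of 71.1. The others were on chromosome 5 at 80243639-80243758 in WT (66.05 in WT, 52.9 in SS), on chromosome 7 at 11359238-11359297 (50.2 and 74.3) and on chromosome 15 at 49689835-49689902 (55.7 and 58.7). The highest-scoring shared WT peak, on chromosome 10 at 97684049-97684125, had 83.55 in WT and 47.1 in SS cells. The second, on chromosome 1 at 24862011-24862096, had 78.35 in WT and 25.6 in SS cells. Among the peaks scoring at least 100, none of the 5 WT and none of the 104 SS peaks was shared, beside 1.70% of all WT and 1.25% of all SS peaks. With shares this low, so few peaks cannot show a difference from the rest.

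Long peaks were shared more often than the rest. Of WT peaks of at least 300 bp 12 of 146 (8.22%) were shared, and of SS peaks 17 of 344 (4.94%), beside 1.70% and 1.25% of all peaks. A longer peak has more room to overlap, and the part of length in this was not tested. In 7 pairs both peaks had at least 300 bp, and 6 of the 7 lay on chromosomes 4, 5, 8 and 12. The best match in extent was on chromosome 12, where a WT peak at 68160146-68160892 (747 bp) lay wholly inside an SS peak at 68160122-68160892 (771 bp). No list other than these held a peak there. On chromosome 5 a WT peak at 14994399-14994827 lay inside an SS peak at 14994250-14995432 of 1183 bp, and a second pair followed at 15051264-15051974 in WT. On chromosome 8 the pairs lay at 19726333-19727213 and 20035407-20035772 in WT. Those on chromosome 5 were also among 13 of the 1302 shared WT peaks that overlapped a peak in both arrested pRb lists. Of the shared WT peaks 7.37% overlapped the arrested WT list and 12.2% the arrested SS list. Whether 13 is more than unrelated lists would give was not tested.

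The division into shared and unshared peaks hid some neighbouring long peaks. On chromosome 11 the longest SS peak, at 3090843-3094381, ended 85 bp before the second longest WT peak, at 3094467-3097206, and both count as unshared. On chromosome 8 between 19720905 and 19734865, a WT-only peak of 2008 bp lay between SS-only peaks of 1928 and 2207 bp, 835 bp from the nearer one. Of the 24 WT-only peaks of at least 500 bp, 7 had an SS peak within 1 kb, which is 29.2% against 8.81% of all WT-only peaks. Of the 53 SS-only peaks of that length 7 had a WT peak within 1 kb, 13.2% against 6.57%. Of the 28 WT peaks of at least 500 bp, 96.4% overlapped at least 1 of the 8 lists of other libraries by 1 bp or more. Of the 59 such SS peaks 91.5% did. Among all peaks the share was 50.1% in WT and nearly the same in SS cells. The long peaks had median lengths of 793 bp in WT and 702 bp in SS cells, against 148 and 145 bp for all peaks. A longer peak has more room to overlap, and the part of length in these shares was not tested.

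Peaks were spread evenly over the chromosomes, more so in WT than in SS cells. WT density ran from 29.2 peaks per Mb on chromosome 7 to 32.5 on chromosome 13, around an autosomal 31.0. SS density ran from 38.1 on chromosomes 7 and 14 to 47.5 on chromosome 19, around 42.4. The SS list held more peaks on each of the 19 chromosomes, with SS over WT ratios from 1.29 (1.24 to 1.35) on chromosome 14 to 1.54 (1.45 to 1.63) on chromosome 19. Chromosome 11 was second highest at 1.46 (1.41 to 1.53). The interval held the autosomal ratio of 1.37 on 13 of the 19 chromosomes. Median lengths ranged from 147 to 149 bp over the chromosomes in WT and from 144 to 146 bp in SS cells. Median scores ranged from 24.0 to 24.3 and from 24.2 to 24.4. Shared WT peaks ranged from 1.42% on chromosome 9 to 2.23% (1.85 to 2.70) on chromosome 5. Chromosome 5 was the only one whose interval did not hold the autosomal 1.70%, and it was at 2.15% (1.77 to 2.62) when its densest bins, defined below, were left out.

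**Figure D3:**
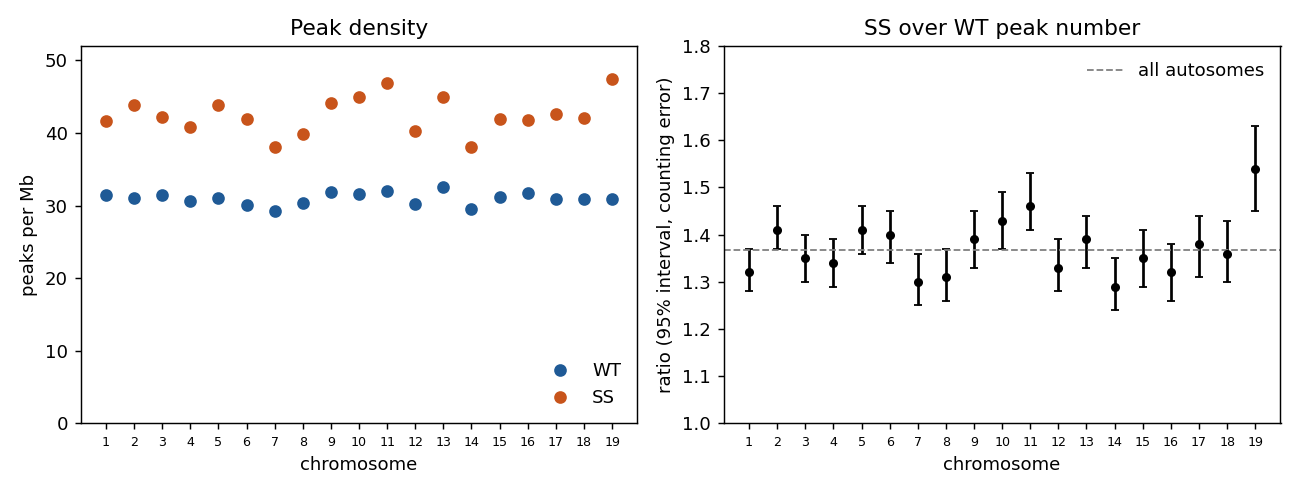
Left, autosomal pRb peaks per Mb on each chromosome in WT (blue) and SS (orange) cells; right, ratio of SS to WT peak number with 95% intervals for counting error, on an axis that starts at 1, and the autosomal ratio of 1.37 as a dashed line. WT densities stay between 29.2 and 32.5, and the ratio is highest on chromosome 19 at 1.54.

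Clustering was described by the gap from each peak to the nearest other peak of its list. The median gap was 10358 bp in WT and 7439.5 bp in SS cells, which is 0.321 and 0.315 of the mean spacing of 32298 and 23607 bp. The nearer side is taken, so the gap falls well below the mean spacing even for randomly placed peaks. No random placement was computed, so these gaps and the shares below do not by themselves show clustering. A neighbour within 10 kb was found for 48.8% of WT and 60.2% of SS peaks. With the SS list shortened to the length of the WT list by score, which also drops its lowest scores, the SS share was 49.2%. At 10 kb, nearness between the lists followed the list searched: 60.1% of WT peaks had an SS peak within 10 kb, and 49.2% of SS peaks had a WT peak within 10 kb. At that distance the nearness of a peak to an SS peak was thus about the same whether it came from WT or SS cells. Within 100 bp, 2.64% of WT peaks and 1.21% of SS peaks had another SS peak that near, but these shares cannot be compared. Values between the lists include overlapping peaks, 1.70% of WT and 1.25% of SS peaks, whereas peaks of the same list do not overlap. Nearness at that distance apart from overlap was not tested. Shared WT peaks had a WT neighbour within 10 kb in 51.2% of cases and WT-only peaks in 48.8%. The corresponding SS values were 63.8% and 60.1%.

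**Figure D4:**
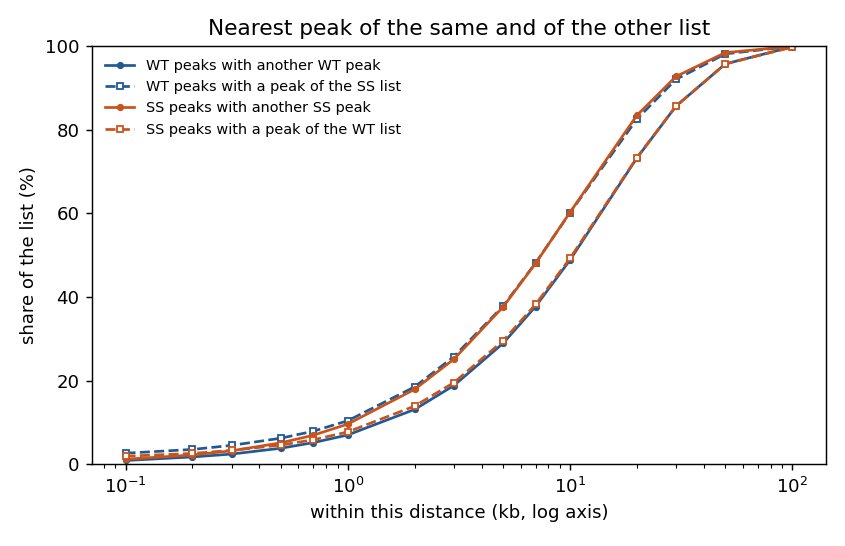
Percentage of peaks with a nearest peak within a given distance (kb, logarithmic axis), for peaks of the same list (solid) and of the other list (dashed, open squares), WT in blue and SS in orange. At 10 kb the curves group by the list that is searched, with 60.2% and 60.1% for SS peaks and 48.8% and 49.2% for WT peaks. At 100 bp the dashed curves, at 2.64% and 1.93%, stand above the solid ones, at 0.901% and 1.21%. The dashed values include overlapping peaks (1.70% of WT and 1.25% of SS peaks), and the solid ones cannot, so the curves are not comparable there.

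Peaks joined across gaps of up to 10 kb gave 54569 clusters in WT and 65635 in SS cells. Of WT peaks 51.2% stood alone, and of SS peaks 39.8%. These numbers depend on peak density and were not set against random placement. Clusters of at least 10 peaks numbered 7 in WT and 36 in SS cells. The largest was in WT cells on chromosome 14 at 43911645-43990972, with 20 WT peaks in 79.3 kb. The same 79.3 kb held 13 SS peaks, and 1 of the WT peaks was shared. Next in WT came 17 peaks on chromosome 4 at 146507740-146578503, beside 5 SS peaks and with none shared. Then followed 14 on chromosome 5 at 14898952-14947052, also beside 5 SS peaks. The largest SS cluster, 14 peaks on chromosome 13 at 101077346-101118096, met 1 WT peak. The following ones, 13 peaks on chromosome 8 at 72040799-72079145 and 12 on chromosome 7 at 53972488-54010026, met 2 and 3 WT peaks.

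In bins of 100 kb, of which 24017 held a peak of any list, the mean was 3.19 WT and 4.36 SS peaks, with a variance over mean of 1.17 and 1.31. No WT peak was found in 1267 bins and no SS peak in 616, of which 93 were empty in both. The densest 1% of bins of each list were 240 in number, and 22 of them were the same in both lists. The bin with most WT peaks, on chromosome 5 at 14900001-15000000, held 22 WT and 14 SS peaks. The bin with most SS peaks, on chromosome 8 at 72000001-72100000, held 21 SS and 14 WT peaks. Sharing was more frequent where peaks were dense: in the 1% of bins with most peaks of both lists together 3.36% of WT and 2.56% of SS peaks were shared, against 1.66% and 1.21% elsewhere. More peaks per bin also leave more chances to overlap, and that part was not tested. These bins held 5.07% of the shared WT peaks and 2.57% of all WT peaks. In SS cells they held 5.06% of the shared and 2.46% of all peaks.

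The largest gains and losses per bin were of a size of 10 to 15 peaks. The leading gains in SS cells were on chromosome 2 at 125000001-125100000, with 0 WT and 15 SS peaks, and on chromosome 7 at 39100001-39200000, with 2 WT and 17 SS peaks. Chromosome 14 at 32300001-32400000 had 0 WT and 14 SS peaks, chromosome 1 at 182700001-182800000 had 2 and 15, and chromosome 2 at 30900001-31000000 had 1 and 14. The leading loss was on chromosome 4 at 80600001-80700000, with 13 WT peaks and 1 SS peak. Chromosome 5 at 15000001-15100000 followed with 11 WT peaks and 1 SS peak, beside the bin with most WT peaks. The other losses among the first 5 were on chromosome 3 at 50900001-51000000 (12 and 2), on chromosome 4 at 146500001-146600000 (18 and 8) and on chromosome 7 at 93100001-93200000 (13 and 3). Across the 24017 bins, which are not independent, Spearman's rho between the WT and SS peak numbers was 0.132.

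In windows of 1 Mb the rho between WT and SS peak numbers was 0.482 over 2417 windows. A larger value at 1 Mb was not particular to this pair: SS peak numbers gave 0.159 per 100 kb and 0.523 per 1 Mb with arrested WT pRb, and 0.181 and 0.545 with proliferating WT H3K27me3. Both 1 Mb values were above the 0.482 between the genotypes, a difference that was not tested. With the other H3K27me3 lists the SS values per 1 Mb were 0.452 (arrested WT), 0.534 (arrested SS) and 0.507 (proliferating SS). They were 0.0130 with arrested SS pRb, -0.391 with Ezh2 WT and -0.438 with Ezh2 SS, so high values were not common to all lists. Mappable sequence per window is one thing that all lists share, and its part in these values was not tested. The SS over WT number, divided by the ratio of list lengths, lay between 0.637 and 1.52 in the middle 90% of the 2365 windows with more than 40 peaks. In 16 windows (0.677%) it was at least 2 and in 15 (0.634%) at most 0.5. The highest, 2.92, was on chromosome 12 at 29000001-30000000 with 12 WT and 48 SS peaks. Next came chromosome 6 at 64000001-65000000 with 13 WT and 47 SS peaks, a ratio of 2.64.

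A single window fell below 0.25, on chromosome 7 at 23000001-24000000, with 43 WT and 5 SS peaks and a ratio of 0.0850. The next lowest, on chromosome 8 at 39000001-40000000, was at 0.377 with 33 WT and 17 SS peaks. The chromosome 7 window lay in a stretch of 3.40 Mb, from 20700001 to 24100000, whose bounds were set after its values were seen. There the WT list held 100 peaks, beside 100 and 99 in stretches of the same length to the left and right. The SS list held 15 peaks, beside 103 and 129, and 22 of its 34 bins had none. The other lists were also sparse in the stretch, to unequal degrees. Relative to the mean of both flanks, arrested pRb had 0.503 in WT and 0.653 in SS cells, and Ezh2, the methyltransferase of the Polycomb complex PRC2, had 0.150 in WT and 0.413 in SS cells. Both proliferating H3K27me3 lists had no peak there, the arrested SS list had 3 and the arrested WT list had 253, which is 0.321 of its flanks. The WT value of 1.01 and the SS value of 0.129 for proliferating pRb were thus in the opposite order to those for Ezh2. The source of these differences was not tested.

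The SS excess over WT was larger where H3K27me3, the histone mark that PRC2 deposits, covered more of the sequence. The 2398 windows of 1 Mb with at least 100 arrested SS pRb peaks were divided into quintiles by the length covered in the proliferating WT H3K27me3 list. From the least to the most covered quintile, with medians of 0.171% and 25.4% covered, WT peaks per window went from 27.7 ± 7.81 to 33.7 ± 6.63 (SD over 480 and 479 windows). SS peaks went from 33.3 ± 9.05 to 50.8 ± 8.78. The SS over WT ratio was 1.20, 1.28, 1.38, 1.43 and 1.51 in the successive quintiles, so that it was 1.26 times as high in the last as in the first. With quintiles taken from the SS H3K27me3 list this value was 1.25. Across windows, Spearman's rho with the peak number of the proliferating WT H3K27me3 list was 0.323 for WT and 0.545 for SS pRb peaks. With the Ezh2 SS list it was -0.300 and -0.438. The values are descriptions over windows of single libraries that share mappability and base composition, and the base composition of the windows was not analysed here.

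**Figure D5:**
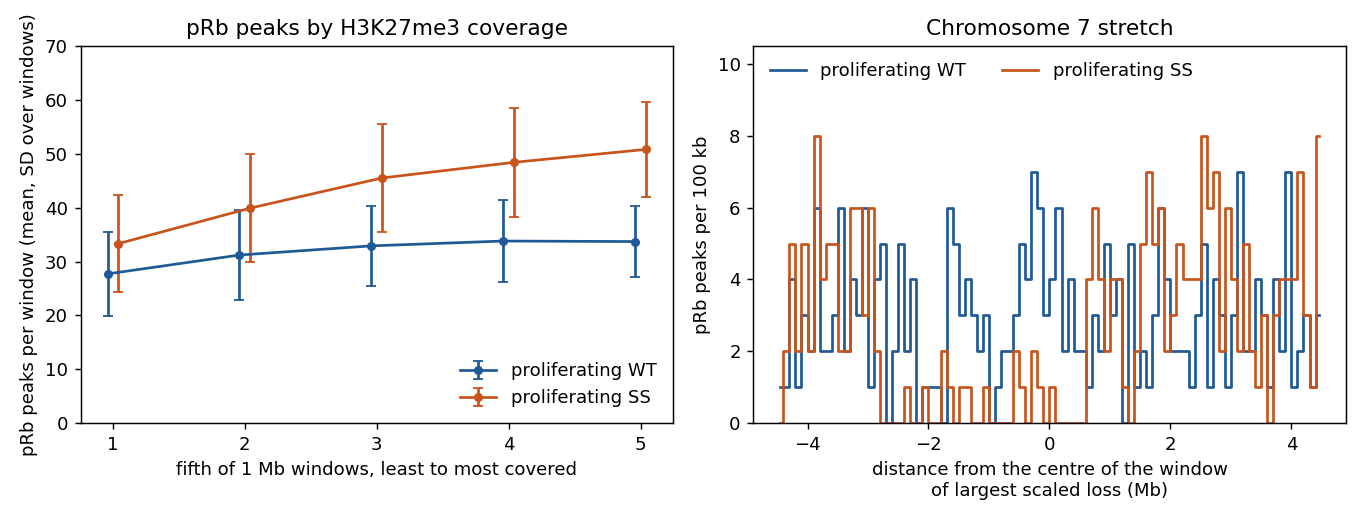
Left, pRb peaks per 1 Mb window (mean, bars SD over windows) in proliferating WT (blue) and SS (orange) cells, by quintile of windows from least to most covered by H3K27me3; right, pRb peaks per 100 kb against the distance from the centre of the chromosome 7 window with the largest scaled loss. SS means go from 33.3 to 50.8 and WT means from 27.7 to 33.7; in the stretch on the right SS holds 15 peaks where WT holds 100.

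The classes were finally set beside the 8 lists that took no part in defining them. By midpoint, the interval of shared peaks lay above that of unshared peaks in WT and in SS cells for 3 of the 8, arrested SS pRb and both Ezh2 lists. For the other 5 lists the intervals overlapped in both. With an overlap of at least 1 bp, arrested SS pRb no longer held among SS peaks. There it was 11.1% (9.52 to 12.9) of shared and 10.2% (9.98 to 10.4) of SS-only peaks. The midpoint of 8.14% (6.78 to 9.75) of shared WT peaks lay in an arrested SS pRb peak, against 6.37% (6.20 to 6.55) of WT-only peaks, where that list covers 5.45% of the autosomes. For arrested WT pRb, which covers 3.07%, the values were 4.69% (3.66 to 5.97) and 3.55% (3.42 to 3.68). Among SS peaks the values for arrested SS pRb were 7.82% (6.48 to 9.40) of shared and 6.22% (6.08 to 6.37) of SS-only peaks. For Ezh2 WT they were 5.61% (4.48 to 6.99) of shared and 3.87% (3.73 to 4.01) of WT-only peaks, and 5.13% (4.06 to 6.47) of shared and 3.71% (3.59 to 3.82) of SS-only peaks, where the list covers 3.20%. Relative to covered sequence, unshared peaks stood between 1.09 and 1.22 for all 8 lists, and shared peaks between 1.12 and 1.75. Proliferating H3K27me3 peaks of the WT list, which cover 9.51%, held the midpoints of 11.1% (9.47 to 12.9) of shared and 10.4% (10.2 to 10.7) of WT-only peaks, and among SS peaks it was 11.1% of shared and 11.1% of SS-only peaks. Arrested WT H3K27me3 peaks held 8.37% of shared and 8.21% of WT-only midpoints. Arrested WT pRb peaks held 4.06% (3.12 to 5.27) of shared and 3.74% (3.62 to 3.85) of SS-only midpoints. Shared WT and shared SS peaks are mostly the same places and are no independent evidence for each other.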

How the data were processed

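Chromatin immunoprecipitation libraries of 10 groups each gave 1 peak list, grouped by the sample titles. The submitters' processing notes name bedtools, HOMER, MACS2 and Bowtie2, and mm9 as build, per the labels, with roles, versions and settings not given in the sources used here. Input libraries are among the samples, and how they entered peak calling is likewise not stated. The deposited lists hold a score per peak in column 5, whose unit no header states, and only positions were used of the 8 other lists. Length was end minus start. Overlap needed 1 bp except where midpoints are named. The extent of a chromosome was the highest peak end over all lists. A peak was counted in the bin or window of its midpoint. The members, classes, windows and named regions were chosen with earlier results of these data known. For each class or direction the leading 5 peaks and bins, and the leading 3 clusters, were eligible to be named, while the windows of 1 Mb, the chromosome 7 stretch and the pairs high or long in both lists were chosen after their values were seen. Alternatives were a reciprocal overlap of 50%, midpoints, peaks above the median score of each list, equal list lengths, merging within 1 kb, leaving out the densest 1% of bins, all chromosomes and a common score cutoff. The overlap, gap, merging and window steps were tested on simulated lists. Depth per sample is unknown, and no count of reads was used. Computation was in Python 3.11.15 with scipy 1.17.1, numpy 2.4.6 and pandas 2.3.3, and plots were drawn with matplotlib 3.10.9.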

Additional observations from a re-analysis of the deposited data

Results flagged for a closer look

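The SS over WT number of pRb peaks moved in opposite directions with proliferating H3K27me3 coverage in the 2 growth conditions. From the least to the most covered quintile of 1 Mb windows the ratio was 1.26 times as high in proliferating cells and 0.831 times as high in arrested cells, where it went from 1.69 to 1.41. Both values used quintiles of the proliferating WT H3K27me3 list, and quintiles by an arrested H3K27me3 list were not tested. The windows also needed at least 100 arrested SS pRb peaks, the number that enters the arrested ratio. The difference between the growth conditions was not tested, and each value rests on 1 library per genotype.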

How the results depend on the processing

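No paired analysis was possible because each group has 1 library, and for the same reason none could be left out. The peak number ratio of 1.37 became 1.35 after merging within 1 kb and 1.41 at the common score cutoff of 24.1. The covered length ratio of 1.36 became 1.40 above the median score of each list, 1.42 after merging and 1.44 at the common cutoff. At equal list lengths it was 0.975, where equal numbers leave only peak length to differ. The SS list was shortened by score there, and score mostly went with shortness. The cut thus also bears on the SS lengths, and its part was not tested. The shared percentage of WT peaks, 1.70%, was 0.839% at a reciprocal overlap of 50%, 0.943% by midpoint, 0.899% above the median score of each list, 1.28% at equal list lengths and 1.91% after merging. That of SS peaks, 1.25%, was 0.613%, 0.709%, 0.655% and 1.42% under the first 3 of these and merging. The median length of shared over unshared peaks, 1.01 in both lists, was 1.00 in WT and 0.993 in SS by midpoint, 1.03 in WT above the median score, and 1.03 and 1.04 after merging. The median score of shared over unshared WT peaks, 0.998, was 1.01 by midpoint and 1.03 above the median score. For SS, 1.00 became 1.03 above the median score and 1.01 after merging. The share of WT peaks with a neighbour within 10 kb, 48.8%, was 28.8% above the median score, 45.1% after merging and 48.0% without the densest bins. For SS, 60.2% became 37.4%, 56.1% and 59.4% under the same settings, 49.2% at equal list lengths and 59.7% over all chromosomes. The cause of these shifts was not tested, except that shorter lists leave fewer neighbours and overlaps by construction. The other 30 values moved by less than the counting interval. Alternatives for both window patterns were added after the data were seen: the chromosome 7 ratio of 0.0850 ranged from 0.0904 to 0.116, and the H3K27me3 value of 1.26 from 1.23 to 1.30. Depth limits every count of peaks here, since a deeper library yields more peaks, and it cannot be told apart from genotype.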
